A study of Mus musculus with 8 samples.

Results

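Cells build cholesterol and fatty acids from the same precursor, acetyl-CoA, and the genes of both routes were examined as 1 group of 29. The list holds 7 enzymes that lead from acetyl-CoA to farnesyl diphosphate, 3 that make squalene and lanosterol from it, and 8 that turn lanosterol into cholesterol. It also holds 7 genes of fatty acid synthesis, the regulators Srebf1, Srebf2 and Insig1, and the sterol carrier Stard4. Members were found by matching the RefSeq transcripts of the tables to these gene symbols, and the values of a gene's transcripts were summed. All 29 were among the 23500 genes of the tables, and 28 could be measured.

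The study put cFos, a subunit of the AP-1 transcription factor, into mesenchymal stem cells of mouse bone marrow, which can form bone, cartilage and fat, and measured polyadenylated RNA. Every group carries a p53 knockout. The tested lines were 4 single-cell clones, numbered 2, 4, 8 and 12, transduced with retrovirus carrying cFos cDNA, and their controls were the same clones with luciferase (Luc) retrovirus, all at fewer than 20 passages. This gave 4 cFos and 4 Luc libraries, 1 of each per clone, and cFos 2 below stands for the cFos library of clone 2. Since no clone was sampled again with the same virus, p-values measure the spread between clones. In the main fit this is the spread of levels within an arm, and in fits that include the clone that of the difference between arms. The labels give neither the promoter of the virus nor the species of the cDNA. Levels are in FPKM, a measure of fragments per length of transcript and per library size, so that genes of different length can be compared. Differences are on the scale of log2(FPKM + 0.5), cFos minus Luc.

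Sterol sensing works through SREBP proteins. When membranes of the endoplasmic reticulum hold little cholesterol, SCAP carries SREBP to the Golgi, where proteases free the part that enters the nucleus, and when sterol is plentiful INSIG proteins hold SCAP back. The product of Srebf2 acts mainly on cholesterol genes and that of Srebf1 mainly on fatty acid genes, and both work together with the promoter factors NF-Y and Sp1.

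Promoter sequence was also looked at. The genes were chosen by route and not by sequence, but SREBP proteins act on genes of these routes together with NF-Y and Sp1. The shares of the NF-Y and Sp1 boxes are therefore not independent of that choice. RefSeq promoter sequence (build GRCm38.p6) was matched for 23 of the 29 genes, as the 250 bases before a start that lies within 250 bases of a start of the deposited transcript. The letters CCAAT, the core of the NF-Y box, stood in 16 of the 23 (69.6%), against 39.6% of 8374 genes tested for expression. They stood in 12 of 15 cholesterol synthesis enzymes and in 2 of 5 fatty acid synthesis genes. The Sp1 box GGGCGG stood in 19 (82.6%), against 65.4%. The AP-1 site TGANTCA, the motif of Fos and Jun proteins, stood in 1 (4.35%), against 4.54%, and the sterol regulatory element, searched as TCACNCCAC, in 1 (4.35%), against 0.979%. The gene with the sterol regulatory element was Hmgcs1, whose level could not be measured, so no measured member held it. Hmgcs1 is also counted among the genes with the NF-Y and Sp1 boxes. The E-box CACGTG stood in 4 (17.4%), against 9.56%. All were searched on both strands, and none of these motifs contains another. A match describes letters in this window, and no match says only that the letters are not there. Of the 2 genes that passed the test of expression below, Pmvk held none of these motifs and Sqle had no matched promoter sequence.

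Promoters of 4 genes are shown: Ebp, Lss and Msmo1 of the cholesterol route, with different numbers of the box, and Elovl6, the fatty acid gene that differed most between the arms. Each is written 5′ to 3′ on the strand of its gene, in lower case, with CCAAT or its complement ATTGG and any AP-1 site in capitals.
Ebp, chrX:8193513-8193762, minus strand: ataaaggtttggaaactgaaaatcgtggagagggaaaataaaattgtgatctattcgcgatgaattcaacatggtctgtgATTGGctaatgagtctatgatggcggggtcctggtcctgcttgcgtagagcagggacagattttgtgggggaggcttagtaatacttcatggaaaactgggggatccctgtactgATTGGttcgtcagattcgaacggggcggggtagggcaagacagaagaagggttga
Lss, chr10:76531355-76531604, plus strand: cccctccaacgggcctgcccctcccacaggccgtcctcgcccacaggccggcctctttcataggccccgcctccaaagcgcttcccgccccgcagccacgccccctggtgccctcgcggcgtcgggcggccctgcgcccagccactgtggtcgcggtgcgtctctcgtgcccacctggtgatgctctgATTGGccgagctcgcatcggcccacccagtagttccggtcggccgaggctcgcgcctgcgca
Msmo1, chr8:64733579-64733828, minus strand: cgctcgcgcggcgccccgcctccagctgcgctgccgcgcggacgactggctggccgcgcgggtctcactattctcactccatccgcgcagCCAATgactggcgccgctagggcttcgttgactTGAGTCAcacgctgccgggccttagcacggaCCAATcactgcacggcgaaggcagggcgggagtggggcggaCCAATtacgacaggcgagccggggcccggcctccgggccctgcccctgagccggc
Elovl6, chr3:129532136-129532385, plus strand: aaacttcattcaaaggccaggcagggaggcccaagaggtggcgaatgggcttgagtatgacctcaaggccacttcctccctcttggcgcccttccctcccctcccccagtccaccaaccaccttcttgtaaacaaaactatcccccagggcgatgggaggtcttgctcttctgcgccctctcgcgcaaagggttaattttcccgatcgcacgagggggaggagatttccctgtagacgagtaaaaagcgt
Msmo1 holds 3 CCAAT boxes and 1 AP-1 site, Ebp holds 2 boxes and Lss 1, and the Elovl6 window holds none.

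Fos was at 505 to 1019 FPKM in the cFos libraries and at 76.2, 41.1, 302 and 43.5 in Luc clones 2, 4, 8 and 12. It was higher with cFos in each clone, by 2.94, 4.02, 1.75 and 3.52 on the log2 scale. The difference was smallest in clone 8, whose Luc library had the most Fos of the Luc libraries. Sequence on annotated transcripts came to 6.93 to 9.06 gigabases in cFos and 7.14 to 9.14 in Luc. The 10 stromal markers summed to 3156 to 4484 FPKM in cFos and 2187 to 5369 in Luc, most of it Col1a1 and Col1a2. Of the surface markers among them, Thy1 was below 1 FPKM in cFos 2, cFos 4, Luc 2, Luc 4 and Luc 8, Nt5e in cFos 4, cFos 8, Luc 2, Luc 4 and Luc 8, and Eng in cFos 8, cFos 12, Luc 8 and Luc 12. Pdgfrb rose in cFos (0.75, limma adjusted p = 0.0442), the 1 stromal marker of 8 tested to pass, where 5.55% of all genes passed. With the clone as a term in the fit, Pdgfrb (limma adjusted p = 0.0213) and Cd44 (1.00, limma adjusted p = 0.0204) rose, where 8.79% of all genes passed. Of 7 blood cell markers 6 were below 1 FPKM in every library, as were all 4 endothelial markers. In bulk samples such as these, fewer cells of a type and less RNA per cell cannot be told apart.

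Transcripts of the route were present in both arms. All 28 measured genes were above 1 FPKM in all 8 libraries, so none passed the filter on low values through 1 arm alone. Scd2, a fatty acid desaturase, had the highest level at 197 ± 59.1 FPKM (SD over 8 libraries), followed by the farnesyl diphosphate synthase Fdps at 96.8 ± 28.4 and the citrate lyase Acly at 75.3 ± 9.73. Tm7sf2, a sterol reductase, was lowest at 2.85 ± 0.516. Hmgcs1, the synthase that makes HMG-CoA, is listed at 0 in every library. The tables place it only on unplaced contigs of chromosome 13 (13_random, mm9), and all 156 entries on such contigs are listed at 0 in all 8 libraries, so its level was not measured.

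Cholesterol synthesis genes were mostly at lower levels in cFos than in Luc, but few passed the test. Of the 28 genes, 2 fell (against 2.62% of all genes), 0 rose (against 2.92%) and 26 did not pass, by limma with adjusted p under 0.05 over 11162 genes. The 2 are 7.14% of the 28, where 5.55% of all genes passed in either direction, so the share was near the background. With an unadjusted limma p under 0.05 there were 7 lower (25%), against 11.1% of all genes, and 1 higher, against 9.06%. With the clone as a block the 28 again gave 2 falls and 0 rises, where 8.79% of all genes passed. Scaling the libraries by their median or by TMM (trimmed mean of M values) gave 1 fall, Sqle, and 1 rise, Elovl6.

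The median difference of the 28 genes was -0.37, against -0.06 over all genes tested, and 23 of them (82.1%) were lower in cFos, against 58.3% of all genes. Of the 28, 12 (42.9%) were lower in cFos in all 4 clones, against 20.9% of all genes, and 2 (7.14%) were higher in all 4, against 15.3%. In 4 (14.3%) every cFos library was below every Luc library, against 7.80% of all genes, and in 1 (3.57%) every cFos library was above, against 5.86%. Among the 17 cholesterol synthesis enzymes 16 (94.1%) were lower and 10 (58.8%) were lower in all 4 clones, with a median of -0.42. The 7 fatty acid synthesis genes had a median of -0.04.

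**Figure D1:**
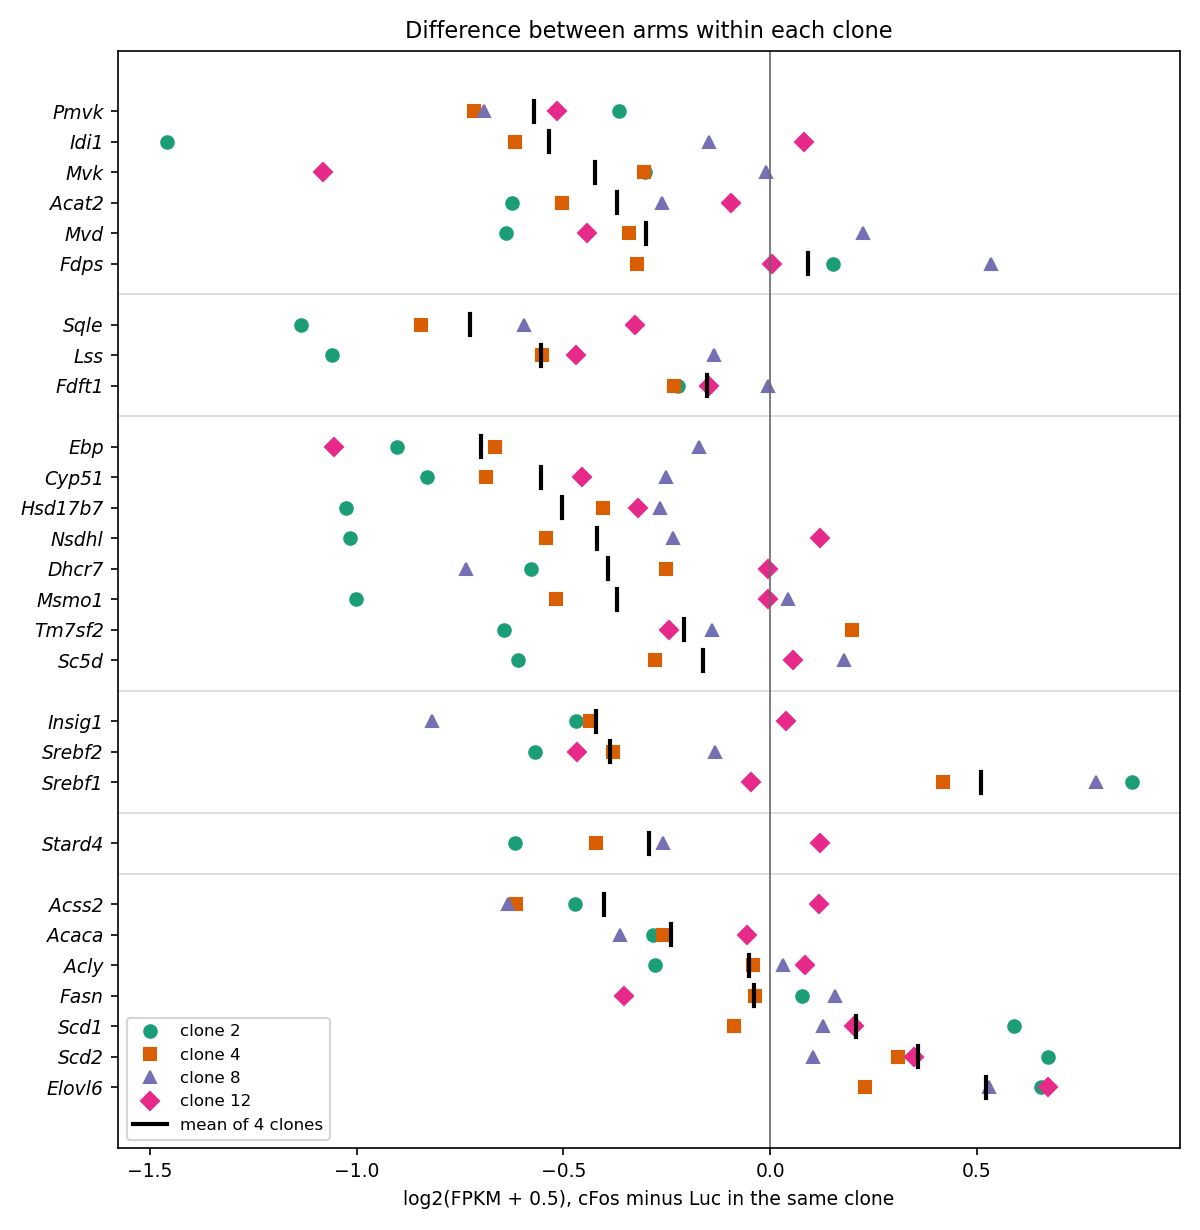
Differences in log2(FPKM + 0.5), cFos minus Luc, within each of the 4 clones for the 28 measured genes, grouped from top to bottom as acetyl-CoA to farnesyl diphosphate, squalene and lanosterol, lanosterol to cholesterol, regulators, sterol transport and fatty acid synthesis; black bars are means over the clones. Sqle, Pmvk, Ebp and 9 others lie below 0 in all 4 clones, and Elovl6 and Scd2 lie above 0 in all 4.

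The falls were those of Sqle and Pmvk. Sqle, squalene epoxidase, a rate-limiting enzyme of the later part of the route (chromosome 15, 59146647 to 59162748, mm9), was at 32.8, 34.8, 30.5 and 42.7 FPKM in cFos clones 2, 4, 8 and 12, against 72.6, 62.9, 46.3 and 53.6 in Luc. Every cFos library lay below every Luc library, with the widest gap in clone 2. The difference was -0.73 (SE 0.17, limma adjusted p = 0.0416, 0.0373 with the clone as a block). The call ended without cFos 2 (0.125), cFos 4 (0.105), cFos 8 (0.106), Luc 2 (0.0949), Luc 4 (0.0968) or Luc 12 (0.0606), with no filter on low values (0.108), and without both libraries of any clone (0.0543 to 0.244).

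Pmvk, phosphomevalonate kinase of the mevalonate route (chromosome 3, 89263040 to 89272931, mm9), was at 11.2, 9.68, 11.2 and 12.8 FPKM in cFos clones 2, 4, 8 and 12, against 14.5, 16.2, 18.3 and 18.5 in Luc. The arms did not overlap, and the difference was -0.57 (SE 0.13, limma adjusted p = 0.0417, 0.0342 with the block). The call ended without cFos 2 (0.116), cFos 4 (0.121), cFos 8 (0.0984), Luc 4 (0.0817), Luc 8 (0.0738) or Luc 12 (0.0884). It also ended with no filter (0.0732), with median scaling (0.0792), with TMM scaling (0.0654) and without both libraries of any clone (0.0895 to 0.215).

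**Figure D2:**
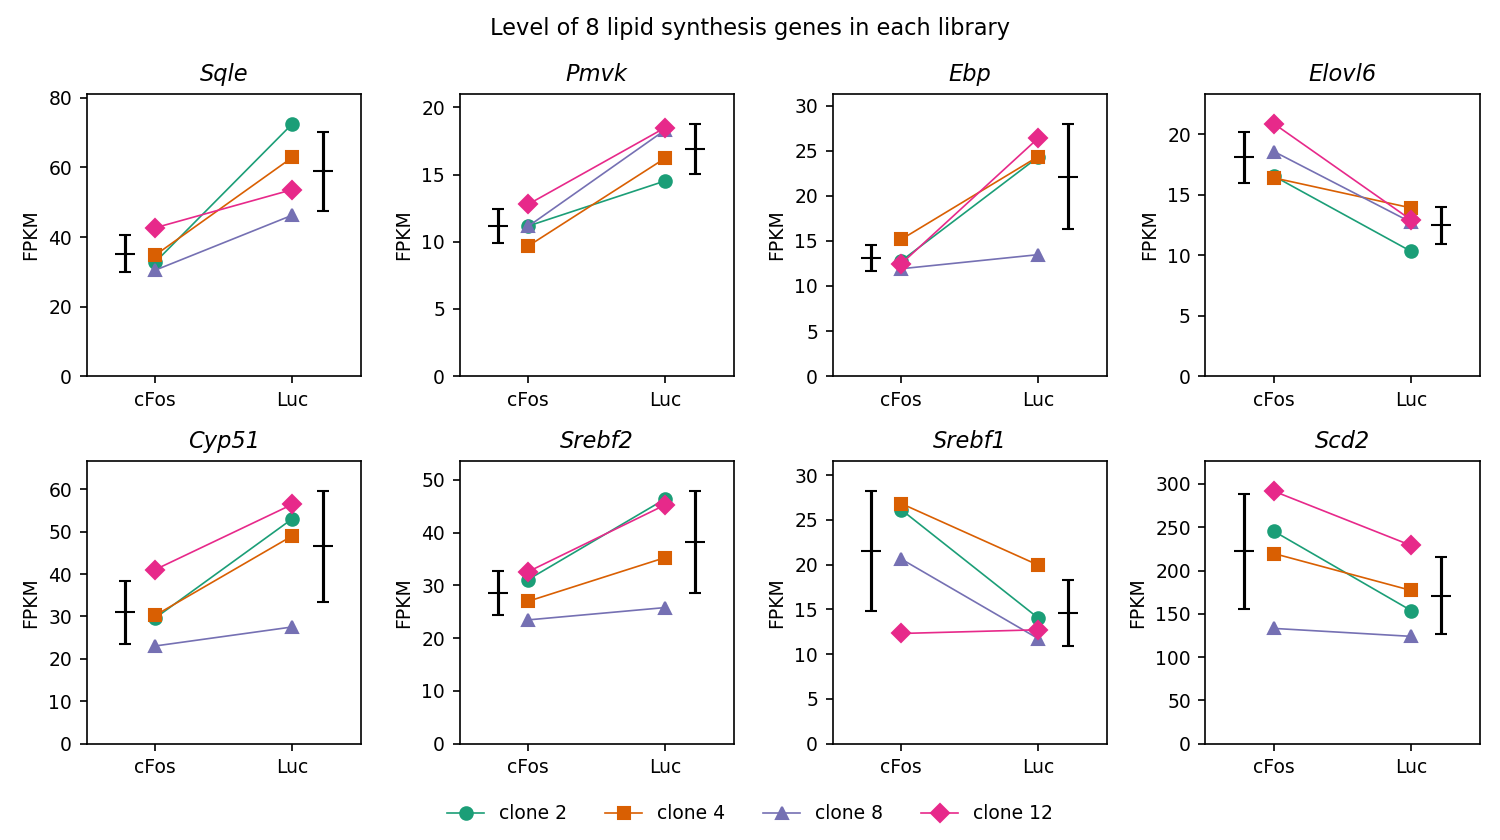
FPKM of 8 genes in each library, cFos on the left and Luc on the right of each panel, with lines joining the libraries of a clone and black bars for the mean ± SD of 4 clones. The cFos libraries of Sqle and Pmvk all lie below the Luc libraries, those of Elovl6 all lie above, and Ebp, Cyp51, Srebf2, Srebf1 and Scd2 overlap between arms.

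The other enzymes before squalene did not pass. Idi1, the isomerase of isopentenyl diphosphate, was at 21.7, 25.5, 21.6 and 47.6 FPKM in cFos clones 2, 4, 8 and 12, against 60.5, 39.3, 23.9 and 44.9 in Luc (-0.54, SE 0.33). The gap was widest in clone 2, and in clone 12 the cFos library was the higher one. Mvk, mevalonate kinase, averaged 12.8 ± 3.09 FPKM in cFos and 17.3 ± 4.01 in Luc (SD, n = 4 each), and Acat2, the thiolase that joins acetyl-CoA units, averaged 27.5 ± 4.09 FPKM in cFos and 36.0 ± 6.94 in Luc. Both were lower in cFos in all 4 clones, Mvk by as little as -0.01 on the log2 scale in clone 8. Mvd, the decarboxylase of the pathway, averaged 11.6 ± 3.71 FPKM in cFos and 14.9 ± 5.70 in Luc. Fdps, which makes farnesyl diphosphate for sterols and for protein prenylation alike, averaged 98.0 ± 24.2 FPKM in cFos and 95.5 ± 36.0 in Luc (0.09, SE 0.29). It alone among the 17 cholesterol enzymes had a mean difference above 0, and the sign turned without cFos 12 (-0.06), without Luc 8 (-0.15) and without clone 8 (-0.06).

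Lss, which folds squalene epoxide into lanosterol, averaged 13.4 ± 1.89 FPKM in cFos and 20.3 ± 5.21 in Luc (-0.55, SE 0.20, limma adjusted p = 0.165). Its limma adjusted p was 0.0355 without Luc 8 and 0.586 without both libraries of clone 2. Fdft1, squalene synthase, averaged 29.6 ± 6.96 FPKM in cFos and 33.3 ± 9.02 in Luc (-0.15, SE 0.25, and 0.017 without cFos 8). Both were lower in cFos in all 4 clones, Fdft1 by as little as -0.01 on the log2 scale in clone 8.

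All 8 enzymes from lanosterol to cholesterol had a mean difference below 0, between -0.70 for Ebp and -0.16 for Sc5d, and none passed. Ebp, the sterol isomerase (chromosome X, 7762457 to 7770638, mm9), was at 12.8, 15.2, 11.9 and 12.4 FPKM in cFos clones 2, 4, 8 and 12, against 24.3, 24.3, 13.5 and 26.4 in Luc (-0.70, SE 0.21, limma adjusted p = 0.0970, 0.0527 with the block). Luc 8 lay among the cFos libraries, and the adjusted p was 0.00682 without it and 0.0184 without both libraries of clone 8. Without both libraries of clone 2 the limma adjusted p of Ebp was 0.407. Cyp51, lanosterol demethylase, averaged 31.0 ± 7.46 FPKM in cFos and 46.5 ± 13.0 in Luc (-0.56, SE 0.25, limma adjusted p = 0.259, 0.0519 with the block). The arms overlapped, with each clone lower in cFos. Hsd17b7, a sterol ketone reductase, was at 5.92 to 7.58 FPKM in cFos and 8.00 to 13.3 in Luc, with no overlap (-0.50, SE 0.17, limma adjusted p = 0.143).

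Nsdhl, a sterol dehydrogenase, averaged 17.6 ± 3.12 FPKM in cFos and 24.4 ± 8.22 in Luc (-0.42, SE 0.24). Msmo1, the methylsterol oxidase whose promoter holds the AP-1 letters, averaged 47.2 ± 11.8 FPKM in cFos and 62.5 ± 19.2 in Luc (-0.37, SE 0.27). Its difference was -0.52 in clone 4 and larger in clone 2, while clones 8 (0.04) and 12 (-0.01) were nearly equal between arms. Dhcr7, the reductase of the last step, was at 5.58 to 6.31 FPKM in cFos and 6.24 to 9.67 in Luc. It was lower in cFos in all 4 clones, by as little as -0.006 on the log2 scale in clone 12. The desaturase Sc5d averaged 22.8 ± 4.05 FPKM in cFos and 25.8 ± 5.43 in Luc, and the reductase Tm7sf2 averaged 2.60 ± 0.437 FPKM in cFos and 3.09 ± 0.523 in Luc. Stard4, which carries sterol between membranes, averaged 14.4 ± 2.80 FPKM in cFos and 17.7 ± 3.14 in Luc and was higher in cFos in clone 12 alone.

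The regulators did not pass, and Srebf1 and Srebf2 differed in direction. Srebf2 (chromosome 15, 81977699 to 82035390, mm9) was at 31.1, 27.0, 23.5 and 32.6 FPKM in cFos clones 2, 4, 8 and 12, against 46.4, 35.3, 25.8 and 45.3 in Luc (-0.39, SE 0.20, limma adjusted p = 0.329). It was lower in cFos in each clone, though the arms overlapped. Srebf1 (chromosome 11, 60012591 to 60034106, mm9) was at 26.2, 26.8, 20.6 and 12.3 FPKM in cFos clones 2, 4, 8 and 12, against 14.0, 20.0, 11.7 and 12.7 in Luc (0.51, SE 0.26, limma adjusted p = 0.325). Clones 2, 4 and 8 had more of it with cFos, and clone 12 was nearly equal. Insig1, both a target and a brake of SREBP, averaged 31.8 ± 7.75 FPKM in cFos and 42.7 ± 10.5 in Luc (-0.42, SE 0.22), with clone 12 nearly equal.

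Fatty acid synthesis genes went both ways, and 0 of 7 passed. Elovl6, which lengthens palmitate (chromosome 3, 129235304 to 129341411, mm9), was at 16.5, 16.4, 18.6 and 20.9 FPKM in cFos clones 2, 4, 8 and 12, against 10.3, 13.9, 12.7 and 12.9 in Luc. Every cFos library was above every Luc library (0.52, SE 0.14, limma adjusted p = 0.0641). The limma adjusted p was 0.0496 with median scaling, 0.0465 with TMM, 0.0531 with the clone as a block and 0.101 with no filter. It was 0.0827 to 0.142 with 1 library left out and 0.155 to 0.234 without both libraries of a clone. Scd2 was at 245, 219.6, 133 and 292 FPKM in cFos clones 2, 4, 8 and 12, against 154, 177, 124 and 229 in Luc (0.36, SE 0.26). It was higher in cFos in all 4 clones, though the arms overlapped. Scd1, its close paralog, averaged 50.5 ± 7.43 FPKM in cFos and 43.8 ± 7.90 in Luc, and how reads were split between these desaturases is uncertain.

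The enzymes that supply and join the carbon units did not share that direction. Acaca, the carboxylase that makes malonyl-CoA, was at 11.3 to 13.2 FPKM in cFos and 13.7 to 15.9 in Luc, with no overlap (-0.24, SE 0.11, limma adjusted p = 0.276). Acss2, which makes acetyl-CoA from acetate, averaged 4.17 ± 0.818 FPKM in cFos and 5.63 ± 0.588 in Luc. Fasn, fatty acid synthase, was at 23.0 to 39.0 FPKM in cFos and 22.3 to 40.1 in Luc, and Acly, which makes acetyl-CoA from citrate, averaged 73.8 ± 8.29 FPKM in cFos and 76.8 ± 12.1 in Luc. For Fasn (-0.04, SE 0.22) and Acly (-0.05, SE 0.15) the difference was smaller than its error and turned sign with median or TMM scaling.

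The size of the difference varied between clones. The median over the 28 genes was -0.57, -0.36, -0.14 and -0.05 in clones 2, 4, 8 and 12, with 22, 24, 18 and 17 of the genes lower in cFos. Over all genes tested the medians were -0.06, -0.09, -0.02 and -0.02, with 54.7%, 62.1%, 51.9% and 51.8% of genes lower. For the 17 cholesterol synthesis enzymes the medians were -0.65, -0.50, -0.15 and -0.25, with 16, 16, 13 and 13 lower. The tables also give a confidence interval of FPKM for each library, which covers the estimate in that library and not the spread between cultures. These intervals are per transcript, so for a gene with several transcripts that of the highest mean FPKM was used, and not the summed value. In clone 2 the intervals were apart for 22 members with cFos lower (41.1% of all genes) and 5 with cFos higher (32.5%), and in clone 4 for 22 lower (36.1%) and 3 higher (20.6%). In clone 8 they were apart for 13 lower (35.8%) and 6 higher (33.0%), and in clone 12 for 10 lower (33.0%) and 4 higher (29.2%).

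Whether the difference of 1 clone departed from the mean of the other 3 was tested for each clone. By limma with adjusted p under 0.05, 0 of 28 members passed for clones 2, 4, 8 and 12, where 0.0179%, 0%, 0.0627% and 0% of all genes did. With an unadjusted p under 0.05 there were 3, 0, 2 and 1 members, where 7.17%, 0.690%, 12.4% and 4.15% of all genes reached it. In clone 2 these were Idi1, Msmo1 and Hsd17b7, and Idi1 was at -1.46, against a mean of -0.23 in the other clones (limma adjusted p = 0.672). In clone 8 they were Ebp and Mvd, and Mvd was at 0.22, against a mean of -0.48 in the other clones (limma adjusted p = 0.381). In clone 12 it was Mvk, at -1.08, against a mean of -0.21 in the other clones (limma adjusted p = 0.963).

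Markers of proliferating cells were lower in cFos alongside the cholesterol genes in 3 of the 4 clones. Their 12 genes, such as Mcm5 and Top2a, summed to 385, 556, 623 and 521 FPKM in cFos clones 2, 4, 8 and 12, against 739, 738, 387 and 701 in Luc. In clones 2, 4, 8 and 12, 12, 12, 1 and 12 of the 12 were lower in cFos, with medians of -0.97, -0.40, 0.64 and -0.45. Over the 4 clones 0 of the 12 passed limma at adjusted p under 0.05, and 1 was lower at an unadjusted p under 0.05. In clone 8, where this list was higher in cFos, 13 of the 17 cholesterol enzymes were lower in cFos, against 51.9% of all genes. The median of these enzymes was -0.15 there, the smallest difference of the 4 clones. A link between the proliferation markers and the cholesterol enzymes was not tested.

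**Figure D3:**
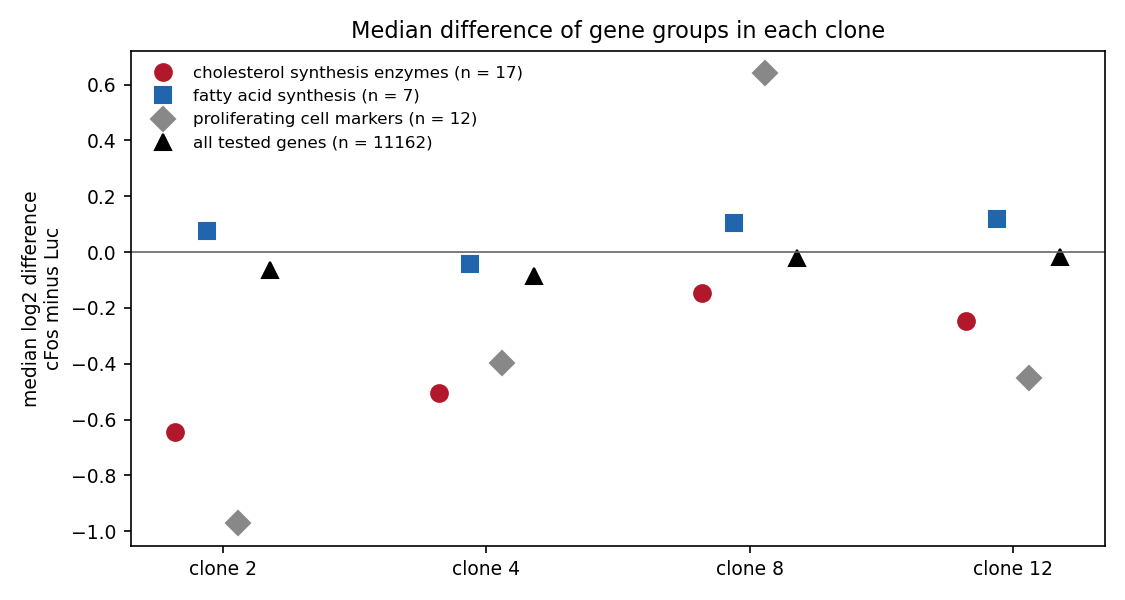
Median difference in log2(FPKM + 0.5), cFos minus Luc, of 17 cholesterol synthesis enzymes, 7 fatty acid synthesis genes, 12 proliferating cell markers and all 11162 tested genes in each clone. The cholesterol enzymes lie below all tested genes in all 4 clones, from -0.65 in clone 2 to -0.15 in clone 8, while the proliferation markers lie above 0 in clone 8.

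The clones also differed in level, with clone 8 low. By the mean of both arms, 21 of the 28 genes (75%) had their lowest level in clone 8, against 35.1% of all genes tested, and 0 had their highest there, against 25.5%. Clone 4 held the highest level of 12 genes (42.9%, against 27.8% of all genes) and clone 12 that of 11 (39.3%, against 23.9%). In the limma F test between clones with the arm as a term, 0 of the 28 passed at adjusted p under 0.05, which 0.484% of all genes did. At an unadjusted p under 0.05 there were 7 (25%), against 16.5% of all genes: Fdft1, Scd2, Mvd, Cyp51, Fdps, Fasn and Srebf2. Fdft1 had the smallest p, with means over both arms of 34.9, 32.0, 20.3 and 38.7 FPKM in clones 2, 4, 8 and 12 (F = 14.4, limma adjusted p = 0.120). Scd2 had means of 199.5, 198, 129 and 260.2 (limma adjusted p = 0.172).

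By arm, clone 8 was lowest for 15 of the 28 genes in cFos (29.2% of all genes) and for 18 in Luc (37.1%). Fat cell markers had their highest sum in clone 8. Their 10 genes summed to 349, 419.6, 1232 and 184 FPKM in cFos clones 2, 4, 8 and 12, against 549.7, 634, 1789 and 71.3 in Luc, and Lep and Cidea were below 1 FPKM throughout. Lpl and Fabp4 made up most of the sum in every library. Lpl was lower in cFos in clones 2, 4 and 8 and higher in clone 12, at 105, 81.6, 226 and 25.9 FPKM in cFos clones 2, 4, 8 and 12, against 389, 312, 1171 and 12.7 in Luc, and Fabp4 was higher in cFos in all 4 clones. By limma 0 of the 5 tested passed. With the clone as a block Cebpa (-1.51, limma adjusted p = 0.0165) and Adipoq (-1.48, limma adjusted p = 0.0456) fell, both lower in cFos in all 4 clones. Adipoq was below 1 FPKM in both arms of clones 4 and 12. Pparg, of the same list, was higher in cFos in all 4 clones (0.73, limma adjusted p = 0.0777 with the block). The part of fat cell and proliferation markers in the levels and differences of the synthesis genes was not tested.

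**Figure D4:**
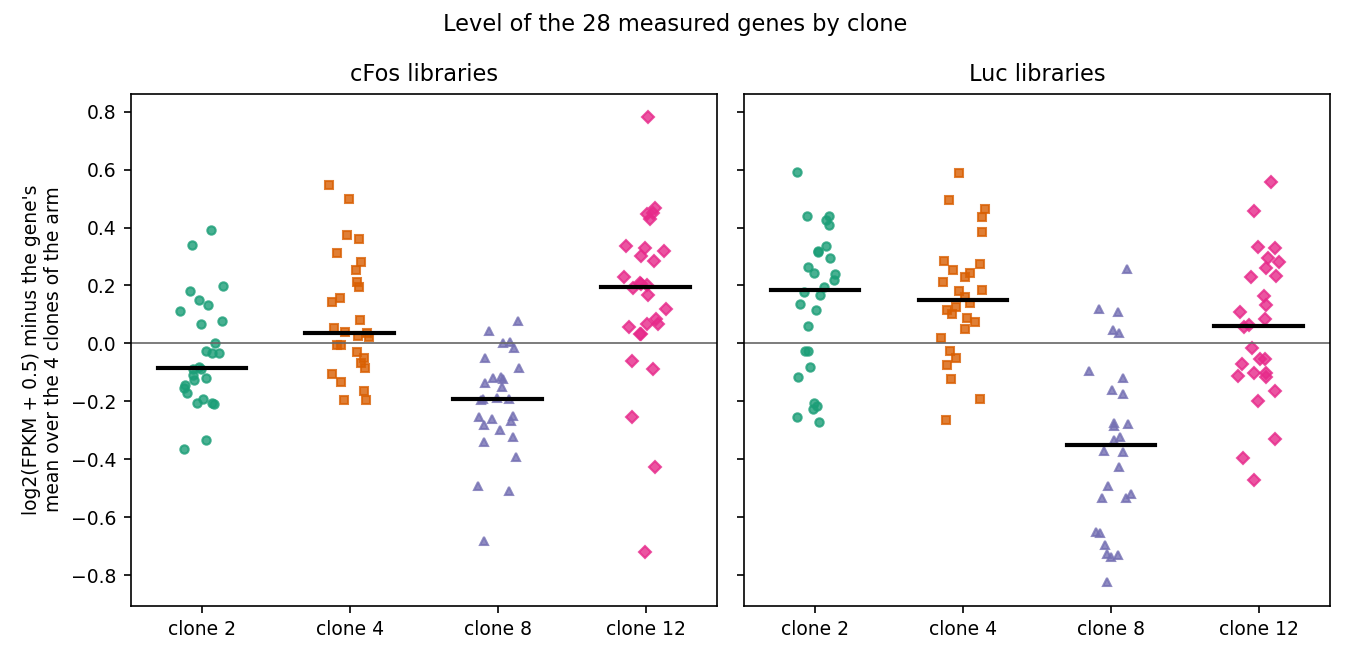
Level of the 28 measured genes in each clone as log2(FPKM + 0.5) minus the gene's mean over the 4 clones of the same arm, cFos on the left and Luc on the right; each point is a gene and black bars are medians. Clone 8 has the lowest median in both arms, -0.19 in cFos and -0.35 in Luc.

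Other genes of sterol and fatty acid handling passed about as often as all genes did. Of 110 tested genes in 8 further lists, 6 rose, 0 fell and 104 did not pass by limma, with a median of -0.01. That is 5.45% called, where 5.55% of all genes were called in either direction and 2.92% rose. A block for the clone gave 9 rises and 3 falls (10.9%, against 8.79% of all genes). Among 5 other cholesterol synthesis genes 1 rose, Cyb5r3, a reductase that passes electrons to cytochrome b5 for sterol and fatty acid desaturation. It was at 243, 236, 301 and 204 FPKM in cFos clones 2, 4, 8 and 12, against 144, 145, 138 and 153 in Luc, with no overlap (0.75, SE 0.13, limma adjusted p = 0.0154, and 0.0558 without cFos 2, 0.127 without both libraries of clone 2 and 0.115 without clone 4).

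Of 11 genes of SREBP processing 1 rose, Insig2, the paralog of Insig1, at 23.0, 22.2, 24.9 and 21.1 FPKM in cFos clones 2, 4, 8 and 12, against 17.7, 16.1, 16.7 and 14.6 in Luc (0.47, SE 0.11, limma adjusted p = 0.0460). The arms did not overlap, but the call ended when any 1 of the 8 libraries was left out, with limma adjusted p between 0.0590 (without Luc 8) and 0.131 (without cFos 2), and when both libraries of any clone were left out (0.117 to 0.222). Scap averaged 12.3 ± 2.55 FPKM in cFos and 14.9 ± 0.302 in Luc. The proteases that free SREBP did not pass either: Mbtps1 averaged 53.8 ± 3.72 FPKM in cFos and 58.3 ± 9.77 in Luc, and Mbtps2 averaged 11.5 ± 1.96 FPKM in cFos and 9.34 ± 0.737 in Luc. With the block Erlin1 also rose (limma adjusted p = 0.0495).

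Of 14 tested genes of sterol uptake and transport 1 rose, Osbpl9, of the oxysterol-binding protein family, at 100.1, 75.2, 78.5 and 69.6 FPKM in cFos clones 2, 4, 8 and 12, against 39.1, 40.9, 31.6 and 38.8 in Luc (1.09, SE 0.15, limma adjusted p = 0.00439). Its arms did not overlap, and the call held without each of the 8 libraries in turn. With the block Vldlr, a lipoprotein receptor, also rose (limma adjusted p = 0.0208) and Npc2, a lysosomal sterol carrier, fell (0.0485).

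Of 11 tested genes of the LXR response, sterol storage and oxysterols 1 rose, Nceh1, a cholesteryl ester hydrolase, at 4.77 ± 0.976 FPKM in cFos and 1.63 ± 0.626 in Luc (1.35, SE 0.27, limma adjusted p = 0.0228), a call that ended without cFos 2 (0.0835), cFos 4 (0.0680) or cFos 8 (0.0666). It also ended with no filter on low values (0.0963) and without both libraries of clone 2 (0.0964), clone 4 (0.0962) or clone 8 (0.0823). Nr1h2, an oxysterol sensor, averaged 11.2 ± 2.32 FPKM in cFos and 11.1 ± 1.07 in Luc. Nr1h3, the other LXR gene, averaged 1.84 ± 1.51 FPKM in cFos and 4.76 ± 3.19 in Luc (-1.16, SE 0.62, limma adjusted p = 0.336) and fell with the block (0.0153).

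Of 22 tested genes of fatty acid synthesis, activation, elongation and desaturation beyond the 7 above, 1 rose, Acsl1, which activates long-chain fatty acids, at 34.5 ± 9.87 FPKM in cFos and 16.8 ± 4.05 in Luc (1.00, SE 0.24, limma adjusted p = 0.0442). Its call ended without cFos 2 (0.130), cFos 4 (0.111), cFos 8 (0.102), Luc 4 (0.103), Luc 8 (0.0841) or Luc 12 (0.0785), with no filter (0.141), and without both libraries of clone 2 (0.133), clone 4 (0.222) or clone 8 (0.142). With the block Hacd1, an elongation cycle enzyme, fell (limma adjusted p = 0.0265). Of 11 genes of the non-sterol isoprenoid branch 0 passed, and their median was -0.01.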

How the data were processed

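The submitters' processing notes name CASAVA 1.8.2, TopHat and Cufflinks with mouse build mm9 (options and annotation not given in the sources used here). The authors deposited 1 table per library, 30769 transcripts each, with FPKM, confidence limits and coverage (a signal, the mean depth per base), per the file headers. No scaling between libraries is recorded. Coverage times length gave the depth. The tables hold FPKM and not reads, so no counting interval was computed.

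RefSeq (GRCm38.p6) named 30227 entries and GENCODE M21 another 180, and 362 kept their accession. FPKM was summed by symbol, and 3 genes were left out for a status other than OK. limma 3.58.1 (R 4.3.3, eBayes with trend, two-sided, Benjamini-Hochberg) was applied to log2(FPKM + 0.5) of the 11162 genes that reached 1 FPKM in 4 or more libraries. The fit had the arm alone as a term; other filters, pseudocounts, scalings and a clone block were tried. The code was tested on simulated data. Plots used matplotlib 3.10.9.

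Equal clone numbers mark 1 cell line and so pair the libraries. Within a clone, departures from the mean of each arm correlated by 0.174 to 0.593. Members and lists were chosen with earlier results of these data known. All members are named; from the other lists, up to 4 genes each that passed and 6 regulators, others where the block gave a call, and 5 oxidation genes and some markers chosen after their values were seen.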

Additional observations from a re-analysis of the deposited data

Results flagged for a closer look

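In 4 of 56 sets of 4 libraries (a gene in 1 arm), 1 library stood far from the other 3, where chance gives about 1 in 20. The count was near that rate, and the sets share the same libraries, so they are not independent. The share over all genes was not computed. Idi1 in cFos 12 was at 47.6 FPKM, while the other cFos libraries were at 21.6 to 25.5. Tm7sf2 in Luc 2 was at 3.86 FPKM, while the other Luc libraries were at 2.77 to 2.94. Ebp in Luc 8 was at 13.5 FPKM, while the other Luc libraries were at 24.3 to 26.4. Fasn in cFos 4 was at 39.0 FPKM, while the other cFos libraries were at 23.0 to 25.5.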

How the results depend on the processing

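Of the synthesis genes, 2 fell; the count was 0 with no filter on low values, 1 with median or TMM scaling, and 0 to 3 when 1 library or both libraries of a clone were left out. The count of rises, 0, became 1 with either scaling. Their median difference stayed between -0.42 and -0.22 when libraries were left out. Over all genes 293 fell, against 83 with no filter, 478 with the clone as a block and 41 to 295 with libraries left out; 326 rose, against 164 with no filter, 503 with the block and 100 to 319 with libraries left out. In the further lists 0 fell, against 3 with the block and 0 to 2 with libraries left out; 6 rose, against 1 to 5 with libraries left out. Leaving out both libraries of a clone was chosen after seeing the data. Fasn turned sign with median scaling (0.024) and TMM (0.017), as did Acly (0.012 and 0.0058). With libraries left out, the log2 difference of Fdps ranged from -0.15 to 0.28, Fdft1 from -0.37 to 0.017, Fasn from -0.21 to 0.13 and Acly from -0.14 to 0.024. The cause was not tested. In the clone test 0 synthesis genes passed in any alternative run, and so in the test of 1 clone's difference, which was not run with single libraries left out. The clone block changed no call of a synthesis gene.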

Other observations

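Genes that break down fatty acids and genes that build glycerolipids were also measured. Of 19 tested genes of fatty acid oxidation 0 passed limma at adjusted p under 0.05. Their median difference was 0.15, against -0.06 over all genes tested. In all 4 clones 5 were higher in cFos and 0 lower: Cpt2, Acadm, Acadl, Acadvl and Hadhb, named after their values were seen. The 5 are 26.3% of the list, where 15.3% of all genes were higher and 20.9% lower in all 4 clones. The share higher in all 4 clones was not particular to this list. It was 24.5% over the 8 further lists together, from 9.09% for the LXR list to 36.4% for SREBP processing. Acadm, the medium-chain dehydrogenase, was at 180.1, 209, 264 and 124 FPKM in cFos clones 2, 4, 8 and 12, against 114, 196, 100.2 and 79.8 in Luc. The arms overlapped, and the gap was widest in clone 8 (1.39) and narrowest in clone 4 (0.10).

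Of 17 tested genes of glycerolipid and phospholipid synthesis 1 rose, 0 fell and 16 did not pass (5.88% called, against 5.55% of all genes), with a median of -0.02. The rise was that of Lpin2, a phosphatidate phosphatase on the way to triglyceride, at 15.3, 14.1, 10.4 and 14.3 FPKM in cFos clones 2, 4, 8 and 12, against 8.07, 7.91, 6.69 and 7.89 in Luc (0.78, SE 0.15, limma adjusted p = 0.0195). Its arms did not overlap, and the call ended without cFos 2 (0.0710) or cFos 4 (0.0680), with no filter (0.0537), and without both libraries of clone 2 (0.136), clone 4 (0.139) or clone 12 (0.0798). With the clone as a block Lpin3, of the same family, also rose (limma adjusted p = 0.0124), at 12.2 ± 4.85 FPKM in cFos and 4.20 ± 3.11 in Luc (SD, n = 4 each).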
